A study of Mus musculus with 40 samples.

Results

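The transcripts of 2 liver receptors of foreign compounds, CAR and PXR, and of 5 genes known as their targets or partners were followed through 6 diet groups of mice. The members were a list of genes: Nr1i2 (PXR), Nr1i3 (CAR), Cyp3a11, Cyp2b10, Cyp2c55, Cyp2a5 and Por. All probes carrying one of these symbols in the platform annotation were taken, which gave 10 of the 25697 probes. They cover 6 of the 7 listed genes, out of 16593 genes with a symbol on the array, and Por was not analysed here. Of the 10 probes, 9 passed the detection filter and were tested, among 11334 probes tested in all. Cyp2a5 had 4 tested probes and Cyp2b10 had 2 probes, of which 1 was tested.

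Livers came from 40 male mice of the inbred strain C57BL/6J, and the RNA of each was hybridised to 1 Illumina mouse expression array. Mice arrived at 6 weeks of age and ate 1 of 2 diets from 5 months of age onward. The NIA diet was low in sucrose (7.6% of energy) and fat (17.7%) at 3.418 kcal/g. The WIS diet was purified and rich in sucrose (46% of energy), with 24.4% of energy from fat at 3.927 kcal/g, so sucrose, fat, energy density and the source of the ingredients differed together and cannot be told apart. Ad libitum mice (AL) ate freely from the hopper. Calorically restricted mice (CR) received a 30% reduced allotment on the cage floor. Meal-fed mice (MF) received their allotment in the hopper. CR and MF mice were both fed once a day at 3 pm, and their allotments were fixed from 14 months of age. Per the labels, intake in calories was matched among MF-NIA, MF-WIS and AL-WIS and was highest in AL-NIA. On the NIA diet there were 5 AL, 9 CR and 6 MF livers, and on the WIS diet 6 AL, 10 CR and 4 MF livers. Neither the age nor the hour of tissue collection is stated in the sources used here. Group names join regimen and diet, as in CR-WIS. Per the series text, arrays of a group are biological replicates.

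CAR and PXR are nuclear receptors of hepatocytes that bind drugs, bile acids and other lipophilic compounds. CAR is held in the cytoplasm until it is activated and then moves to the nucleus, whereas PXR is switched on by direct binding of its ligands. Both pair with the retinoid X receptor and raise transcription of cytochrome P450 genes, conjugating enzymes and transporters that clear foreign and endogenous compounds. Por encodes the reductase that passes electrons to microsomal P450 enzymes.

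Levels below are in log2 units relative to the mean of all probes on the same array. They set samples against each other for 1 probe, and levels of different probes are not compared. Per array, 34.0% to 43.6% of probes were detected at a detection p-value under 0.01 on the 34 signal columns used, and median signals ran from 134 to 276. Of 14 hepatocyte markers, 9 were detected and tested, and their mean deviation from the mean of all arrays lay between -0.81 and 0.63 in every liver. Livers were bulk tissue, so fewer cells of a type and less RNA per cell cannot be told apart. Of the 40 libraries 3 stood apart as a whole, and a further one, AL-WIS replicate 4, was raised for 3 pancreas and gut markers (mean deviation 3.21) and changed no call of a member when left out. AL-WIS replicate 1 was raised for macrophage markers, with a mean deviation of 3.31 over 12 genes, and lowered for 8 pericentral hepatocyte markers (-1.57). MF-WIS replicate 4 was lowered for the pericentral markers (-1.25) and for 10 endothelial markers (-0.81). The library labelled CR-NIA replicate 1 matched no deposited signal column of its group, and AL-NIA columns were not searched. On the main axis of variation over the 40 livers (first principal component) it lay at 12.70. The other CR-NIA livers ran there from -22.89 to -11.22 and AL-NIA livers from -5.93 to 20.53. Whether it is a restricted liver was not tested, and it was kept in the group of its label. Results are given with these 3 libraries, and without them where that ends or makes a call.

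Nr1i2, the PXR transcript, was higher in restricted livers than in freely fed livers. In AL-NIA the 5 levels of Nr1i2 were 1.84, 1.68, 1.90, 1.57 and 1.98. In CR-NIA they ran from 1.65 through a median of 2.46 to 2.66. The groups overlapped through 1 library, since 8 of 9 CR-NIA livers lay above every AL-NIA liver, and the exception was the library labelled CR-NIA replicate 1. In MF-NIA Nr1i2 ran from 1.40 through 1.97 to 2.14. In AL-WIS it ran from 0.60 through 1.80 to 2.13, with AL-WIS replicate 1 lowest of all 40 livers. In CR-WIS it ran from 1.71 through 2.38 to 3.00, and 8 of 10 CR-WIS livers lay above every AL-WIS liver. The 4 MF-WIS levels of Nr1i2 were 1.93, 1.42, 2.16 and 2.52, which overlapped every other group. Ordered by their means, the groups ran from CR-WIS (2.43 ± 0.39, SD, n = 10) and CR-NIA (2.37 ± 0.32, n = 9) through MF-WIS (2.01 ± 0.46, n = 4), MF-NIA (1.91 ± 0.27, n = 6) and AL-NIA (1.79 ± 0.17, n = 5) to AL-WIS (1.66 ± 0.56, n = 6). No neighbours in that order differed beyond their spread (adjusted p at least 0.271 by limma).

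Nr1i3, the CAR transcript, was also highest in the restricted groups. The 5 AL-NIA levels of Nr1i3 were 2.14, 2.57, 1.92, 1.13 and 2.42. In CR-NIA Nr1i3 ran from 1.96 through 2.52 to 2.75, with 4 of 9 livers above every AL-NIA liver. In MF-NIA it ran from 2.11 through 2.45 to 2.57, which lay inside the AL-NIA range. In AL-WIS it ran from 0.24 through 1.83 to 2.48, and its lowest liver was again AL-WIS replicate 1. In CR-WIS it ran from 1.45 through 2.69 to 3.17. The 4 MF-WIS levels of Nr1i3 were 1.42, 2.05, 1.96 and 0.62, and 8 of 10 CR-WIS livers lay above all of them. The order of means was CR-WIS (2.61 ± 0.54, SD), CR-NIA (2.45 ± 0.26), MF-NIA (2.38 ± 0.18), AL-NIA (2.04 ± 0.56), AL-WIS (1.61 ± 0.77) and MF-WIS (1.51 ± 0.66). Neighbours in that order did not differ beyond their spread (adjusted p at least 0.54 by limma).

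**Figure D1:**
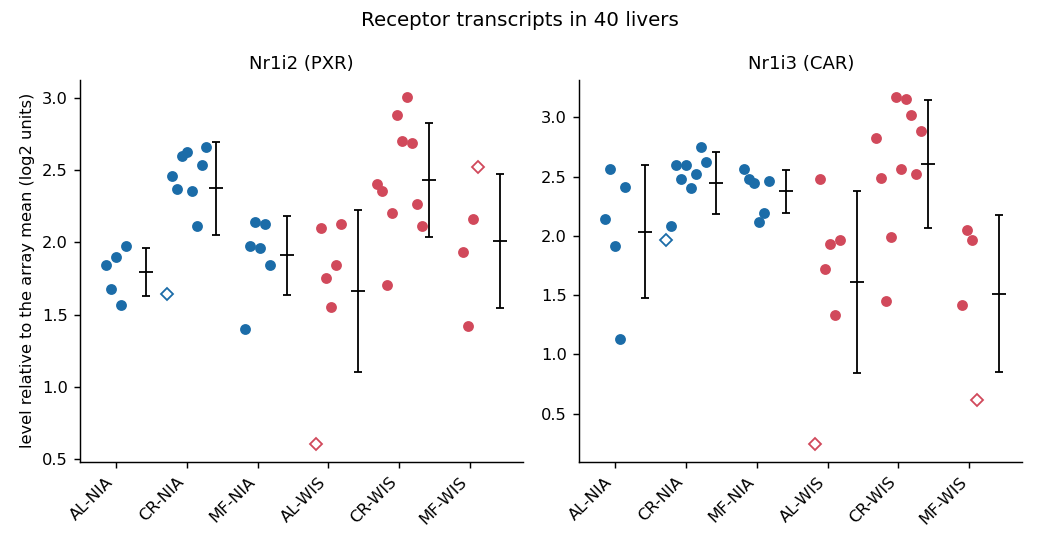
Level of Nr1i2 (PXR, left) and Nr1i3 (CAR, right) in each liver, in log2 units relative to the array mean. Each point is 1 liver (blue NIA, red WIS), open diamonds are the 3 libraries that stood apart, and the bar beside each group is its mean with the SD. Restricted groups have the highest means of both receptors (2.43 and 2.37 for Nr1i2), and AL-WIS replicate 1 is the lowest point in each panel.

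Averaged over both diets, both receptors were higher under caloric restriction than under free feeding. The amount of food, the once-daily meal and the place of feeding differed together between CR and AL and cannot be told apart. Nr1i2 was 1.60-fold higher (difference 0.67, SE 0.14, 95% interval 0.39 to 0.96, adjusted p = 0.000676 by limma). Nr1i3 was 1.63-fold higher (0.70, SE 0.19, interval 0.33 to 1.08, adjusted p = 0.00546). With the 4 Cyp2a5 probes described below, 6 of 9 member probes were called in this comparison, all higher, where 26.4% of all probes tested were called and 11.5% were called higher. Within the WIS diet both receptors rose, Nr1i2 by 0.77 (SE 0.19, adjusted p = 0.00947) and Nr1i3 by 1.00 (SE 0.25, adjusted p = 0.0108). Both WIS calls missed the threshold without AL-WIS replicate 1 alone, at 0.56 for Nr1i2 (adjusted p = 0.0526) and 0.72 for Nr1i3 (adjusted p = 0.061). With all 3 libraries that stood apart left out, the differences were the same size and passed (adjusted p = 0.02 and 0.0313). Within the NIA diet neither receptor passed, with 0.58 for Nr1i2 (SE 0.20, adjusted p = 0.058) and 0.41 for Nr1i3 (SE 0.27, adjusted p = 0.349). Without the library labelled CR-NIA replicate 1 Nr1i2 passed in NIA, at 0.67 (adjusted p = 0.0152). The restriction effect was not shown to differ between diets for either receptor (interaction adjusted p = 0.82 for Nr1i2 and 0.563 for Nr1i3), and 0.0265% of all probes were called in that interaction.

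Restriction was also set against meal feeding. CR and MF mice shared the once-daily meal, while the allotment and the place of feeding (cage floor or hopper) differed together. Averaged over diets, Nr1i2 was 1.36-fold higher in CR than in MF (0.44, SE 0.15, adjusted p = 0.0225) and Nr1i3 was 1.50-fold higher (0.58, SE 0.19, adjusted p = 0.0249). In total 4 of 9 member probes were called in this comparison, 3 higher and 1 lower, against 25.9% of all probes, of which 8.88% were higher and 17% lower. Hepatocyte markers rose here too, with 4 of 9 higher, 0 lower and a median of 0.41, against 9.47% of 7958 genes called higher. Without the 3 libraries 2 of the 9 were higher and 1 lower, with a median of 0.39. Their part in the receptor differences was not tested. The Nr1i2 call was lost without MF-WIS replicate 2 (adjusted p = 0.0896), and the Nr1i3 call without MF-WIS replicate 4 (adjusted p = 0.106). Within WIS, Nr1i3 was 2.13-fold higher in CR than in MF (1.09, SE 0.29, adjusted p = 0.0302) and was the 1 member called, where 3.34% of all probes were called and 1.31% were called higher. That call ended without any of CR-WIS replicates 1, 5 or 7 or MF-WIS replicates 1 or 4, with an adjusted p of up to 0.167. Without the 3 libraries it was 0.80 (adjusted p = 0.0601), while Nr1i2 (0.60, adjusted p = 0.0494) and the leading Cyp2a5 probe (1.46, adjusted p = 0.0419) passed, against 5.56% of all probes. Within NIA, 0 of 9 member probes were called by limma, where 19% of all probes were, and 4 had an unadjusted p under 0.05. Without the 3 libraries 4 were called there, against 32.2% of all probes, a share near that of the members. They were Nr1i2 at 0.55 (adjusted p = 0.00469), Cyp2c55 at -0.78 (adjusted p = 0.00117) and the Cyp2a5 probes ILMN_3159131 at 1.10 (adjusted p = 0.018) and ILMN_3079804 at 0.93 (adjusted p = 0.0268).

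The diet comparison gave no call for either receptor. Over the mean of 3 regimens, Nr1i2 differed between WIS and NIA by 0.01 (SE 0.12, 95% interval -0.24 to 0.26, adjusted p = 0.98), so a change of more than 0.26 in either direction lay outside the interval. Nr1i3 differed by -0.38 (SE 0.16, interval -0.71 to -0.04, adjusted p = 0.2), and without the 3 libraries by -0.20 (adjusted p = 0.44). Under MF all 4 WIS livers lay below all 6 NIA livers for Nr1i3, with a difference of -0.86 (SE 0.32) that missed the threshold (adjusted p = 0.334).

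The promoters of 3 target genes are shown because calls with all libraries fell into 2 patterns, lower on the WIS diet (Cyp3a11 and Cyp2b10) or higher under restriction (Cyp2a5). The patterns are not exclusive. Without the 3 libraries that stood apart the leading Cyp2a5 probe was also called lower on WIS (-0.82, adjusted p = 0.0364 by limma). Each run is the 250 bases upstream of the RefSeq gene start on build GRCm38, written 5′ to 3′ on the gene's strand, and comes from RefSeq. Capitals mark the nuclear receptor motif, AGGTCA or AGTTCA, or its complement on the other strand.
Cyp3a11, chr5:145879855-145880104, minus strand: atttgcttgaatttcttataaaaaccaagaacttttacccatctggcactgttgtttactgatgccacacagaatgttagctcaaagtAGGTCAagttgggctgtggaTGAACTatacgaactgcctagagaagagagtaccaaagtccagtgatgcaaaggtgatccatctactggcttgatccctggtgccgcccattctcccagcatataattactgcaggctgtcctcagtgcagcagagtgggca
Cyp2b10, chr7:25897408-25897657, plus strand: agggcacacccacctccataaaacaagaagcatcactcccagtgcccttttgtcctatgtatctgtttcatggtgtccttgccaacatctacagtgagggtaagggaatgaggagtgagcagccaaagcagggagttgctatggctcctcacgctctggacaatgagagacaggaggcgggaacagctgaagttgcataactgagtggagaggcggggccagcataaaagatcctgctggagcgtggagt
Cyp2a5, chr7:26835089-26835338, plus strand: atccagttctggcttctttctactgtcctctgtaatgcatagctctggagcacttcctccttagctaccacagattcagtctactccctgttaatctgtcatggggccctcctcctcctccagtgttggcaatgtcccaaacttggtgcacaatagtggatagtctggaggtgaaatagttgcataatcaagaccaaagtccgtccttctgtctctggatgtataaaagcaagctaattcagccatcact
The Cyp3a11 window held the motif at 2 places, AGGTCA from -162 to -157 on the gene's strand and AGTTCA from -142 to -137 on the other strand, counted from the gene start. The Cyp2b10 and Cyp2a5 windows held neither, nor did that of Cyp2c55, which is not printed. Of 32851 RefSeq promoters searched on both strands, 24.2% held the motif at least once. Only these exact letters were searched, so a motif with a changed base was not counted, alone or in a pair. Pairs of these motifs spaced as direct repeats by 3, 4 or 5 bases, or as everted repeats by 6 or 8, were in none of the 3 windows, and each such pair was in at most 0.033% of all promoters. Such pairs contain the single motifs, so the searches overlap. The phenobarbital-responsive enhancer of Cyp2b10, through which CAR acts in mice, lies farther upstream than this window.

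Cyp3a11 encodes the main mouse counterpart of human CYP3A4 and is a standard readout of PXR. Its transcript was lower on the WIS diet under each regimen. The 5 AL-NIA levels of Cyp3a11 were 6.36, 6.84, 5.96, 6.85 and 6.43, and AL-WIS ran from 3.58 through 5.53 to 6.02. These groups overlapped, since 4 of 6 AL-WIS livers lay below every AL-NIA liver. In CR-NIA Cyp3a11 ran from 6.25 through 6.60 to 7.02, and in CR-WIS from 4.56 through 5.00 to 5.69. All 10 CR-WIS livers lay below all 9 CR-NIA livers. In MF-NIA it ran from 6.19 through 6.47 to 7.25, and the 4 MF-WIS levels were 5.89, 5.54, 5.56 and 5.80, all below every MF-NIA liver. The means were 6.62 ± 0.23 (SD) in CR-NIA, 6.55 ± 0.37 in MF-NIA, 6.49 ± 0.37 in AL-NIA, 5.70 ± 0.17 in MF-WIS, 5.20 ± 0.96 in AL-WIS and 5.13 ± 0.48 in CR-WIS, with no difference between neighbours beyond their spread (adjusted p at least 0.208 by limma). Deposited signals of this probe ran from 12777 to 33961 in the 8 CR-NIA columns and from 5337 to 13759 in the 10 CR-WIS columns.

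Averaged over regimens, Cyp3a11 was 2.32-fold lower on WIS than on NIA (difference -1.21, SE 0.16, 95% interval -1.53 to -0.89, adjusted p = 1.36e-05 by limma). In this comparison 3 of 9 member probes were called, all lower, against 2.94% of all probes tested and 1.45% called lower. One of the 3, Cyp2b10, entered the test only through its NIA columns, so its call is a description. Under CR the difference was -1.49 (2.80-fold lower, SE 0.22, adjusted p = 8.17e-05), where again 3 of 9 member probes, Cyp2b10 among them, were called, all lower, against 3.49% of all probes and 1.31% called lower. Under AL it was -1.29 (SE 0.29) and missed the threshold (adjusted p = 0.0643), but passed without CR-NIA replicate 1 or AL-WIS replicate 2, 3 or 6 (lowest adjusted p 0.0308). Under MF it was -0.86 (SE 0.31, adjusted p = 0.315). Regimen did not move Cyp3a11 past the threshold, with 0.03 for CR against AL (SE 0.18, interval -0.34 to 0.40, adjusted p = 0.921), -0.25 for CR against MF (adjusted p = 0.346) and 0.28 for MF against AL (adjusted p = 0.44).

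Cyp2b10 encodes the P450 enzyme whose induction is the classic readout of CAR in mice, and its probe separated detected from undetected groups. Probe ILMN_2594926 was detected in 8 of 8 CR-NIA columns and 5 of 6 MF-NIA columns, and in 0 of 20 WIS columns. At the looser detection p-value of 0.05, 14 rather than 13 of 34 columns passed. Detection was not read for AL-NIA. Levels in AL-NIA were -0.05, -0.77, 0.91, -0.50 and 0.03, and AL-WIS ran from -1.10 through -0.92 to -0.82, below every AL-NIA liver. In CR-NIA they ran from -0.33 through 0.26 to 2.70, the top value being the library labelled CR-NIA replicate 1, and in CR-WIS from -1.09 through -0.93 to -0.57. All 10 CR-WIS livers lay below all 9 CR-NIA livers. In MF-NIA levels ran from -0.98 through -0.01 to 1.55 and MF-WIS levels were -0.95, -0.83, -0.72 and -1.0, so these groups overlapped.

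Since no WIS column was above background for this probe, its folds are given against the detection floor of the WIS arrays. The CR-NIA mean of Cyp2b10 lay 1.84-fold above the floor of CR-WIS. That mean counts the library labelled CR-NIA replicate 1, at 2.70, so 1.84 is no bound without it. The adjusted p of 0.00506 by limma belongs to the measured CR-WIS minus CR-NIA difference of -1.32. Without the 3 libraries that measured difference was -1.04. The AL-NIA mean lay 1.34-fold above the floor of AL-WIS, and the MF-NIA mean 1.54-fold above the floor of MF-WIS. Neither is a bound, since detection was not read for AL-NIA and only 5 of 6 MF-NIA columns were detected. The measured differences did not pass (adjusted p = 0.345 and 0.334 by limma). Averaged over regimens the diet difference had an adjusted p of 0.00241. The probe met the detection filter only through NIA columns, so a diet difference was in part fixed by its entry, and its p-values are no independent support. Without the 3 libraries, among them the highest CR-NIA value, the adjusted p was 0.00206 under CR and 0.000654 over all regimens. Group means were 0.43 ± 0.95 (SD) in CR-NIA, 0.18 ± 0.93 in MF-NIA and -0.08 ± 0.64 in AL-NIA, and the 3 NIA groups were spread widely. The WIS means, -0.88 ± 0.12 in MF-WIS, -0.89 ± 0.17 in CR-WIS and -0.95 ± 0.11 in AL-WIS, lie at background and have no order. Neighbours in the order did not differ beyond their spread (adjusted p at least 0.336). Cyp2b10 was not called between regimens, with 0.28 for CR against AL (SE 0.23, adjusted p = 0.372).

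The other Cyp2b10 probe, ILMN_1215955, was detected in 0 of 34 columns and in 2 at the looser p-value. Its levels ran from -0.94 to -0.56 in the 40 livers and were not tested. Fitted without the detection filter it differed between diets by 0.00 (SE 0.03, adjusted p = 0.975). The lower level of Cyp2b10 on WIS was thus seen with 1 probe only. Probe sequences were not used here, so which close relatives of Cyp2b10, Cyp2a5 (the near-identical Cyp2a4) and Cyp3a11 each probe can capture was not tested.

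Cyp2c55, a P450 gene of the Cyp2c cluster induced by activators of CAR and PXR in mouse liver, was lower on WIS as well. The 5 AL-NIA levels were 1.13, 0.59, 0.97, 1.80 and 0.44, and AL-WIS ran from -0.86 through -0.40 to -0.12. All 6 AL-WIS livers lay below all 5 AL-NIA livers. In CR-NIA Cyp2c55 ran from -0.02 through 0.66 to 1.92, and in CR-WIS from -0.83 through -0.63 to -0.24, with all 10 CR-WIS livers below all 9 CR-NIA livers. In MF-NIA it ran from 0.53 through 1.49 to 1.98, and the MF-WIS levels were -0.09, -0.20, -0.62 and 1.59. In MF-WIS 3 of 4 livers lay below every MF-NIA liver, and the exception was MF-WIS replicate 4. The probe was detected in 14 of 14 CR-NIA and MF-NIA columns, in 5 of 6 AL-WIS, 2 of 10 CR-WIS and 3 of 4 MF-WIS columns, so the WIS levels rest in part on background signal.

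Averaged over regimens, Cyp2c55 was 2.48-fold lower on WIS than on NIA (-1.31, SE 0.16, interval -1.63 to -0.99, adjusted p = 2.73e-06). Under CR it was 2.52-fold lower (-1.34, SE 0.22, adjusted p = 0.000314), with 2 of 10 CR-WIS columns above background, so the size is uncertain. With neqc, which subtracts background, the same difference was -2.62. Under AL it was 2.62-fold lower (-1.39, SE 0.29, adjusted p = 0.0363) and was the 1 member called, where 0.0618% of all probes were called and 0.0353% called lower. That AL call ended on removal of any of 7 single libraries, AL-NIA replicates 1 to 4 and AL-WIS replicates 1, 5 and 6, with an adjusted p of up to 0.132, and held without the 3 libraries together (adjusted p = 0.00383). Under MF the difference was -1.21 (SE 0.31, adjusted p = 0.196), and 0 of 9 members were called by limma there, against 0.00% of all probes. In the MF comparison 4 member probes had an unadjusted p under 0.05. Without MF-WIS replicate 4 the difference was -1.68 (adjusted p = 0.00765). Means ran from 1.38 ± 0.49 (SD) in MF-NIA, 0.98 ± 0.53 in AL-NIA and 0.75 ± 0.56 in CR-NIA to 0.17 ± 0.97 in MF-WIS, -0.41 ± 0.25 in AL-WIS and -0.59 ± 0.18 in CR-WIS, and neighbours did not differ beyond their spread (adjusted p at least 0.166).

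Cyp2c55 was the member that was lower under restriction than under meal feeding, by -0.69 over both diets (1.62-fold lower, SE 0.19, adjusted p = 0.0062). It did not pass against AL (-0.21, SE 0.18, adjusted p = 0.407), nor did MF against AL (0.48, SE 0.21, adjusted p = 0.165). Without MF-WIS replicate 4 the difference between CR and MF was -0.46 (adjusted p = 0.0417). It passed within neither diet with all libraries. Without the 3 libraries it was -0.78 within NIA (adjusted p = 0.00117) and -0.29 within WIS (adjusted p = 0.48). These were not shown to differ between diets (interaction adjusted p = 0.566).

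**Figure D2:**
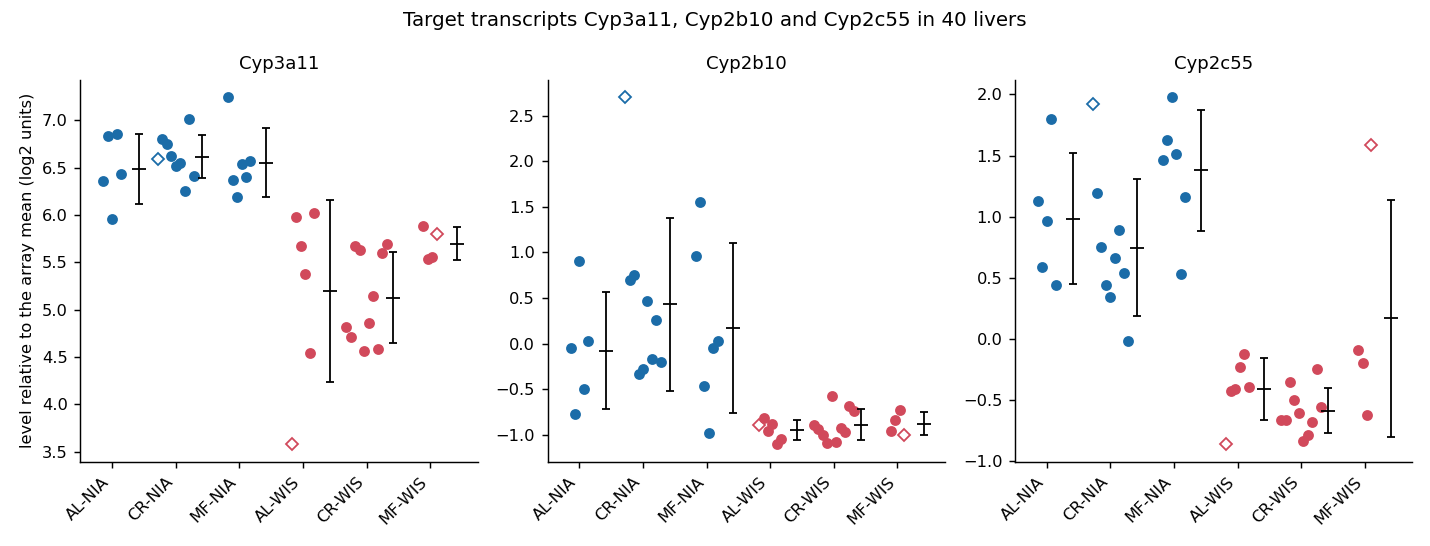
Level of Cyp3a11, Cyp2b10 (probe ILMN_2594926) and Cyp2c55 in each liver, in log2 units relative to the array mean, each panel with its own axis. Each point is 1 liver (blue NIA, red WIS), open diamonds are the 3 libraries that stood apart, and the bar beside each group is its mean with the SD. The 10 CR-WIS livers lie below the 9 CR-NIA livers in each panel, and the WIS levels of Cyp2b10 lie at background.

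Further P450 genes known to be induced through CAR or PXR were lower on the WIS diet. Of 11 such genes tested besides the members, 5 were lower on WIS over the mean of 3 regimens and 0 were higher, against 1.31% of 7958 genes called lower. The median difference over the 11 genes was -0.35, and over all genes 0.01. Cyp3a25, another gene of the Cyp3a family, was lower by -0.98 (SE 0.19, adjusted p = 0.00557). Cyp2c29 was lower by -1.11 (SE 0.26, adjusted p = 0.0181) and Cyp2c37 by -1.03 (SE 0.29, adjusted p = 0.0403), both members of the Cyp2c cluster. Cyp3a13 was lower by -0.35 (SE 0.10, adjusted p = 0.0424). The fifth, Cyp2c50, named after its value was seen, was lower by -1.01 (adjusted p = 0.0442). On leaving out the 3 libraries 5 were lower and 0 higher, with Cyp1a2 (-0.74, adjusted p = 0.00537) in the place of Cyp3a13. The Cyp2c genes then differed by less, Cyp2c29 by -0.62, Cyp2c37 by -0.49 and Cyp2c50 by -0.47. Of 25 other target genes, 3 were lower and 0 higher, with a median of -0.30. These were Gstm4, a glutathione transferase (-0.56, SE 0.11, adjusted p = 0.00702), Ces2a, a carboxylesterase (-0.40, SE 0.09, adjusted p = 0.0143), and Slco1a4, an organic anion transporter (-0.73, SE 0.20, adjusted p = 0.0334). With the 3 libraries left out 11 of the 25 were lower and 0 higher, against 2.27% of genes called lower in that fit.

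Partners of the receptors held no diet call with all libraries. Of 13 co-regulators and partners of CAR and PXR tested, 0 were called by limma (median -0.01), and of 6 electron donors and partners of microsomal P450 enzymes 0 were called (median 0.00). When the 3 libraries were left out 1 of the 6 was lower on WIS, Cyb5a, named after its value was seen, by -0.24 (adjusted p = 0.0341). Markers of hepatocytes (9 genes), pericentral hepatocytes (8), macrophages (12), neutrophils (7), stellate cells and fibroblasts (9) and endothelium (10) also held 0 calls in the diet comparison. The pericentral markers, from the zone in which many P450 genes are most active, had a median of -0.12 there.

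Cyp2a5, which encodes the mouse coumarin hydroxylase and is raised through CAR and by several other routes, followed the feeding regimen. Its leading probe, ILMN_3159131, had AL-NIA levels of 6.40, 5.45, 5.22, 4.76 and 5.39, and ran in CR-NIA from 6.46 through 7.01 to 8.05. All 9 CR-NIA livers lay above all 5 AL-NIA livers. In AL-WIS it ran from 2.88 through 4.69 to 6.24 and in CR-WIS from 4.08 through 6.67 to 6.99, with 7 of 10 CR-WIS livers above every AL-WIS liver. The lowest AL-WIS liver was replicate 1 and the lowest CR-WIS liver was replicate 3. In MF-NIA it ran from 5.83 through 6.19 to 6.34, below every CR-NIA liver. The MF-WIS levels were 3.80, 5.42, 5.50 and 7.25, the widest group, and replicate 4 was its highest. Means were 7.14 ± 0.55 (SD) in CR-NIA, 6.37 ± 0.87 in CR-WIS, 6.12 ± 0.22 in MF-NIA, 5.49 ± 1.41 in MF-WIS, 5.44 ± 0.60 in AL-NIA and 4.67 ± 1.19 in AL-WIS, and neighbours in that order did not differ beyond their spread (adjusted p at least 0.269).

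Averaged over diets, the leading Cyp2a5 probe was 3.24-fold higher under restriction than under free feeding (1.70, SE 0.30, interval 1.08 to 2.31, adjusted p = 0.000161). The other 3 probes rose by 1.63, 1.75 and 1.46 (adjusted p between 0.000582 and 0.000816). Within NIA the leading probe rose 3.23-fold (1.69, SE 0.45, adjusted p = 0.0117), and 3 of 9 member probes were called, all of Cyp2a5 and all higher, against 11.6% of all probes and 4.69% called higher. Within WIS it rose 3.25-fold (1.70, SE 0.41, adjusted p = 0.00912), and 6 of 9 member probes were called, the 4 of Cyp2a5 and both receptors, all higher, against 13.0% of all probes and 6.29% called higher. The probes disagreed at the threshold. ILMN_2734598 missed it in NIA (1.38, adjusted p = 0.0598), ILMN_1229267 passed there at an adjusted p of 0.0429, and ILMN_3079804 passed in WIS at 0.0478. Without the 3 libraries ILMN_2734598 passed in NIA (1.40, adjusted p = 0.0125), and ILMN_3079804 missed the threshold in WIS (0.98, adjusted p = 0.0545). With each of 40 libraries left out in turn, the ILMN_1229267 call in NIA held in 30 fits, and ended on removing CR-NIA replicate 2, 3, 5, 6, 8 or 9, or any AL-NIA liver but the first. The ILMN_3079804 call in WIS held in 14 of the 40 fits and stood at an adjusted p of 0.166 without AL-WIS replicate 1. Without that library the ILMN_1229267 call in WIS ended too (1.54, adjusted p = 0.0528), and without AL-NIA replicate 4 so did the ILMN_3079804 call in NIA (1.47, adjusted p = 0.0592). The restriction effect on the leading probe differed between diets by 0.01 (SE 0.61, interval -1.22 to 1.24, adjusted p = 0.996), an interval too wide to show that it was equal.

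**Figure D3:**
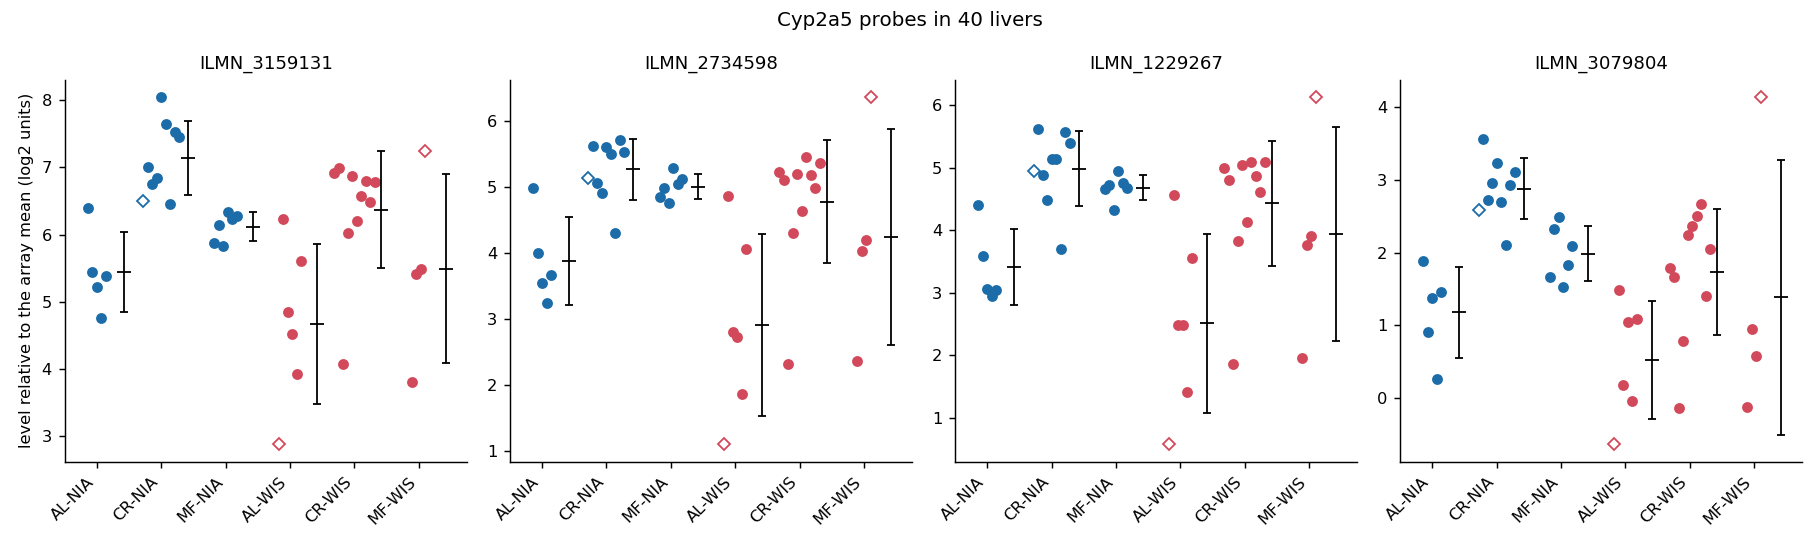
Level of the 4 Cyp2a5 probes in each liver, in log2 units relative to the array mean, each panel with its own axis. Each point is 1 liver (blue NIA, red WIS), open diamonds are the 3 libraries that stood apart, and the bar beside each group is its mean with the SD. The probes order the livers alike, and all 9 CR-NIA livers lie above all 5 AL-NIA livers for ILMN_3159131 and ILMN_3079804.

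The 4 probes tracked each other over the 40 livers, with Pearson correlations from 0.88 to 0.99 between pairs. They share the arrays and the gene, so this describes the probes and adds no samples. Against meal feeding the leading probe was 1.93-fold higher under restriction over both diets (0.95, SE 0.32, adjusted p = 0.025), and the other 3 probes did not pass (0.40, 0.40 and 0.62, adjusted p between 0.155 and 0.46). The call on the leading probe was lost without MF-WIS replicate 1 (0.67, adjusted p = 0.126). Without the 3 libraries that stood apart ILMN_3079804 passed as well (1.10, adjusted p = 0.00111), and the 2 remaining probes stood at 0.76 and 0.77 (adjusted p = 0.0576 and 0.074). Meal feeding against free feeding gave 0 called member probes by limma in NIA (2% of all probes), in WIS (0.0441%) and over both diets (4.27%). At an unadjusted p under 0.05 there were 2, 2 and 5. The nearest was Cyp2a5 probe ILMN_1229267 over both diets, at 1.35 (SE 0.41, adjusted p = 0.0523), which passed on removal of any of 6 single libraries (lowest adjusted p 0.0188). It was 0.79 without the 3 libraries (adjusted p = 0.191). In the other interactions, of MF and of CR against MF with diet, 0 of 9 members were called (0.00% and 0.00882% of all probes), with 0 and 1 at an unadjusted p under 0.05.

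The diet difference of Cyp2a5 missed the threshold in all 4 probes, from -0.72 to -0.80 over the mean of 3 regimens (adjusted p between 0.0901 and 0.188). Without the 3 libraries 6 member probes were called lower on WIS, 3 of them of Cyp2a5, against 4.54% of all probes called. The leading Cyp2a5 probe then stood at -0.82 (adjusted p = 0.0364). Under CR alone, ILMN_3079804 was also called lower on WIS in that fit (-1.18, adjusted p = 0.00526), against 12.4% of all probes called. Without MF-WIS replicate 4 alone the leading probe also passed (-0.92, adjusted p = 0.0447).

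**Figure D4:**
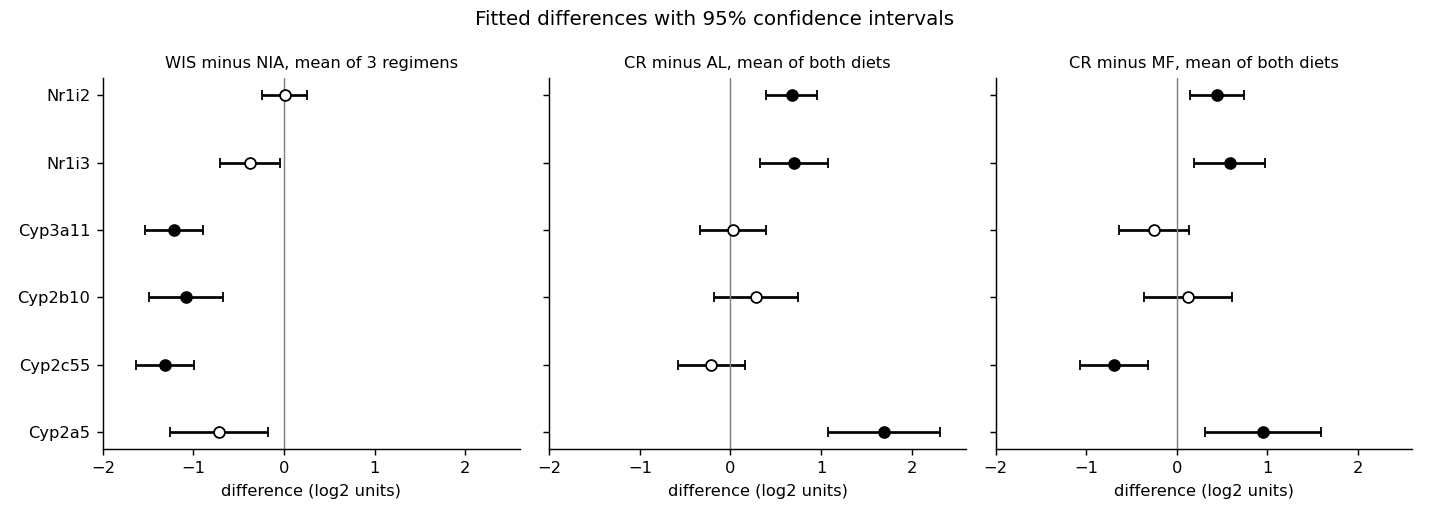
Fitted difference of the leading probe of each gene with its 95% confidence interval, in log2 units, for WIS minus NIA, CR minus AL and CR minus MF. Filled points passed the threshold of adjusted p under 0.05, and the Cyp2b10 diet difference rests on background signal in WIS. Cyp3a11, Cyp2b10 and Cyp2c55 are lower on WIS, whereas Nr1i2, Nr1i3 and Cyp2a5 are higher under CR than under AL (0.67, 0.70 and 1.70).

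Other genes of the pathway were read against the shares of all genes called higher and lower between CR and AL. Of 25 other target genes, 6 were higher and 1 lower in CR than in AL over both diets (median 0.26, all genes -0.01). Of 7958 genes 26.9% were called, 11.7% higher and 15.2% lower. Alas1, which encodes the first enzyme of heme synthesis and so supplies P450 proteins with their cofactor, was 3.03-fold higher (1.60, SE 0.28, adjusted p = 0.000147). Abcc2, a canalicular exporter, was higher by 0.44 (adjusted p = 0.00943), Gsta4 by 0.65 (adjusted p = 0.02) and Ephx1, an epoxide hydrolase, by 0.47 (adjusted p = 0.0297). The 1 lower gene, named after its value was seen, was Sult1e1, the estrogen sulfotransferase (-0.52, adjusted p = 0.0374). Leaving out the 3 libraries gave 7 of the 25 higher and 0 lower, with a median of 0.14. Of 11 other P450 genes 1 was higher, Cyp1a2, by 1.22 (SE 0.31, adjusted p = 0.00375). Without the 3 libraries 1 was higher, Cyp1a2 (0.92, adjusted p = 0.000138), and 1 lower. The lower gene was Cyp2c29, named after its value was seen (-0.72, adjusted p = 0.000736). Among 13 partners of the receptors 2 were higher, the retinoid X receptors Rxrb (0.25, adjusted p = 0.00284) and Rxra (0.29, adjusted p = 0.00587), and 2 lower, the chaperone Hsp90aa1 (-0.35, adjusted p = 0.0252) and Rxrg (-0.21, adjusted p = 0.0442). With the 3 libraries left out 3 of the 13 partners were higher and 3 lower. Among 6 electron donors and partners Cyb5a rose by 0.30 (adjusted p = 0.0408) and the heme-degrading Hmox1 fell by 0.53 (adjusted p = 0.00689).

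Markers of another cell type moved with the same comparison. Of 7958 genes, 15.2% were called lower and 11.7% higher in CR than in AL over both diets. Of 12 macrophage markers tested, of 17 listed, 10 were lower, with a median of -0.89. Without the 3 libraries, where 18.8% of genes were called lower, 10 of these markers were lower and 1 higher. Their mean deviation per liver ran from -0.30 to 0.73 in AL-NIA, from -0.21 to 3.31 in AL-WIS, from -0.78 to 0.34 in CR-NIA and from -0.67 to 0.71 in CR-WIS. Lyz2 and Adgre1, markers of macrophages at large and of Kupffer cells, were detected on 34 of 34 columns and lower by -1.36 and -1.30. Of 9 stellate cell and fibroblast markers 5 were lower, and of 7 neutrophil markers 3. Of 9 hepatocyte markers 1 was higher, Asgr1, by 0.36 (adjusted p = 0.0254). The part of these other cell types in the receptor and Cyp2a5 differences was not tested.

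Livers of the same group that were high in a receptor tended to be high in Cyp2a5. Since groups differed in level, each liver was taken as its deviation from its group mean, and 15 pairs among the leading probes of 6 genes were computed over 40 livers, with residuals permuted within groups and p-values adjusted over the 15 pairs. Nr1i2 and Cyp2a5 had a Pearson r of 0.65 (adjusted permutation p = 0.00315) and a Spearman rho of 0.51 (adjusted permutation p = 0.0403). This r was 0.58 without the 2 livers farthest from the median of Nr1i2, 0.49 without the 3 libraries that stood apart, 0.51 within NIA and 0.70 within WIS. Nr1i3 and Cyp2a5 had an r of 0.52 (adjusted permutation p = 0.0353) and a rho of 0.46 (adjusted permutation p = 0.0511). That relation rested on 2 livers, AL-WIS replicate 1 and CR-WIS replicate 3, without which r was 0.24, although r was 0.71 without the 3 libraries, of which MF-WIS replicate 4 was low in Nr1i3 and high in Cyp2a5.

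Nr1i3 and Cyp2c55 had an r of -0.42 (adjusted permutation p = 0.0352). Their rho of -0.40 missed the threshold (adjusted permutation p = 0.0511). The r was -0.60 without the 2 farthest livers, -0.62 within NIA and -0.35 within WIS. Cyp2c55 was at background in 8 of 10 CR-WIS columns. So the r over all livers rests in part on background signal, and nothing is read from the WIS value. The receptors had an r of 0.50 with each other (adjusted permutation p = 0.0353) and a rho of 0.34 (adjusted permutation p = 0.198), and 0.31 without the 2 farthest livers. The 3 targets that were lower on WIS showed no relation past the threshold among themselves within groups, with r of 0.00 for Cyp3a11 and Cyp2b10, 0.19 for Cyp3a11 and Cyp2c55 and 0.32 for Cyp2b10 and Cyp2c55 (adjusted permutation p between 0.196 and 0.989). Cyp2b10 was at background in all WIS columns and Cyp2c55 in 8 of 10 CR-WIS columns, so deviations there are largely background signal and nothing is read from these pairs. No other pair passed. Every pair was measured on the same arrays and shares their RNA and normalization.

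**Figure D5:**
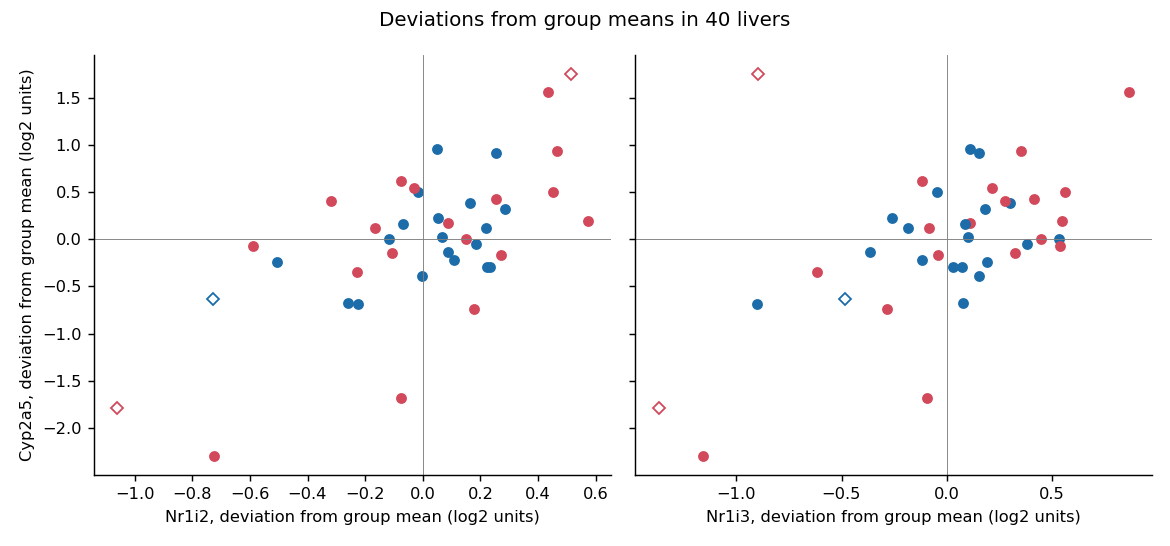
Deviation of each liver from its group mean for Cyp2a5 (vertical axis) against Nr1i2 (left) and Nr1i3 (right), in log2 units. Each point is 1 of 40 livers (blue NIA, red WIS) and open diamonds are the 3 libraries that stood apart. Points rise from lower left to upper right for Nr1i2 (r = 0.65), and for Nr1i3 the open red diamond at upper left is MF-WIS replicate 4.

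The genes whose pattern over the 40 livers was most like that of each member were named from 7952 genes by their Pearson correlation, as a description over arrays that share groups and normalization. For Nr1i3 they were Nr1h4 (0.85), which encodes the bile acid receptor FXR, Cyp4a14 (0.83) and Acat1 (0.83). For Nr1i2 they were Ces1g (0.85), Pdcd2 (0.85) and Gstt2 (0.84). Cyp2a5 was most like Gch1 (0.91), Akr1c19 (0.85) and Gstt2 (0.85). Cyp3a11 was most like Cyp3a25 (0.84), Gstm4 (0.73) and Aox3 (0.73), and Cyp2c55 most like Gstm4 (0.74), Mrps22 (0.72) and Slc39a4 (0.69). Likeness was weaker for Cyp2b10, led by Paxx (0.65), Gstm4 (0.63) and Cgnl1 (0.58). Gstm4 thus appeared for each of the 3 targets that were lower on WIS, and Gstt2 for both Nr1i2 and Cyp2a5.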

How the data were processed

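Levels came from the deposited series table, a score per probe and array that behaves as a z-score (mean 0, SD 1 on each array, from its values). How the authors made it from signals is not stated in the sources used here. A second deposited table gives linear signal intensity and, per the file headers, a detection p-value beside it. GenomeStudio 2011.1 is named in the submitters' processing notes. Its column names show the group only, with 6 columns for AL-NIA against 5 labelled samples and 8 for CR-NIA against 9. So 6 columns (AL-NIA) were set aside, and 34 served detection, scale and alternatives. The series text speaks of 48 arrays, of which 40 were given.

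Scores times 1.51, the median SD of log2 signal, read in log2 units. Differences of scores so scaled had slopes of 0.888 to 1.02 against deposited log2 signals. Background was not subtracted, which understates changes of dim probes such as Cyp2b10 and Cyp2c55. Symbols came from the platform annotation (23978 probes had 1, 1719 none, 0 several). A probe entered if its detection p-value was under 0.01 on 4 or more columns. limma 3.58.1 in R 4.3.3 fitted 6 group means to all 40 arrays, and p-values were adjusted by Benjamini-Hochberg over 11334 probes per comparison, with 0.05 as the threshold. That adjusted p is meant throughout. Correlations were tested with 100000 permutations within groups, two-sided, in NumPy 2.4.6. The plan counted 21 pairs of members, and 15 could be computed without Por. The fit was tested on simulated data.

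Replicate numbers do not pair samples: over 79 same-numbered pairs, deviations from group means correlated by -0.01 on average. Every probe of the members is described. Up to 4 genes per pathway list, those of smallest adjusted p past the threshold, are named, and the leading probe of a gene is that of highest mean. Members and lists were chosen with earlier results of these data known, as were the 3 libraries left out together. Alternatives changed the filter, probe, normalization, array weights, moderation, samples fitted and the replicate block.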

Additional observations from a re-analysis of the deposited data

Results flagged for a closer look

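Dixon's test for 1 sample far from the others of its group was run on 60 combinations of probe and group with 4 to 10 livers, and 5 samples passed, where chance gives about 1 in 20. Cyp3a11 in MF-NIA replicate 1 was far above the rest of its group, at 7.25. Cyp2b10 probe ILMN_2594926 in the library labelled CR-NIA replicate 1 was far above the rest, at 2.70. In CR-WIS replicate 3, Cyp2a5 was far below the other CR-WIS livers in 3 probes, at 4.08 for ILMN_3159131, 2.33 for ILMN_2734598 and 1.86 for ILMN_1229267. These 3 probes measure the same gene in the same liver. No member passed in any of the 3 interactions between regimen and diet (0 calls).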

How the results depend on the processing

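Over all single-probe and count results no alternative reversed a called direction. Counts below are called member probes of 9. In CR-NIA against AL-NIA the count of 3 became 1 with the leading probe of each gene, 5 with array weights, 5 with only the groups compared, 0 with the replicate block, 5 without the 3 libraries that stood apart and 1 to 5 without single libraries. In CR-WIS against AL-WIS the count of 6 became 3 with the leading probe, 1 with only the groups compared, 1 with the replicate block, 5 without the 3 libraries and 2 to 6 without single libraries. In CR-NIA against MF-NIA the count of 0 became 1 with arrays centred on their median, 1 with neqc, 2 with quantile-normalized log2 signals, 4 with array weights, 3 with only the groups compared, 4 without the 3 libraries and 0 to 2 without single libraries. In CR-WIS against MF-WIS the count of 1 became 0 with no detection filter, 2 with neqc, 6 with array weights, 0 with only the groups compared, 0 with the replicate block, 2 without the 3 libraries and 0 to 2 without single libraries. In AL-WIS against AL-NIA the count of 1 became 0 with no filter, the leading probe, only the groups compared or the replicate block, and 0 to 2 without single libraries. For MF-NIA against AL-NIA the count of 0 became 1 with array weights and 2 with only the groups compared, and for MF-WIS against MF-NIA 1 with array weights, 1 without the 3 libraries and 0 to 1 without single libraries. Averaged over diets, the 6 calls of CR against AL became 3 with the leading probe, which leaves 1 probe per gene, and stayed 6 without the 3 libraries and 6 to 6 without single libraries; the 0 of MF against AL became 1 with detection on at least 17 columns, 2 with quantile normalization of the scores and 0 to 2 without single libraries; and the 4 of CR against MF became 7 with array weights, 0 with the replicate block, 5 without the 3 libraries and 3 to 4 without single libraries. The 3 diet calls became 7 with array weights, 6 without the 3 libraries and 3 to 6 without single libraries, and the 3 under CR became 4 without the 3 libraries and 3 to 4 without single libraries. Where no construction is named, the cause was not tested. Over all probes, settings other than single libraries moved the calls of CR-NIA against AL-NIA from 1316 to between 518 and 3103, of CR against AL from 2997 to between 1429 and 4056, and of the diet comparison from 333 to between 165 and 964.

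With neqc, which subtracts background, CR-WIS against CR-NIA gave -2.67 in place of -1.32 for Cyp2b10 (not above background on WIS) and -2.62 in place of -1.34 for Cyp2c55, and CR against MF gave -1.13 in place of -0.69 for Cyp2c55. Signal over background limits Cyp2b10 and Cyp2c55 on WIS, and the 4 MF-WIS and 5 AL-NIA arrays limit the comparisons that use them. Alternatives that start from the signals gave no value for comparisons with AL-NIA.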
